A study of Mus musculus with 50 samples.

Results

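Cytochrome P450 genes were followed through mouse embryonic stem (ES) cells that lack enzymes for methylation of histone H3 at lysine 9. The genes were taken by symbol: every row of both expression tables named Cyp, a family number, a subfamily letter and a gene number. This gave 103 of the 24411 symbols that both tables hold. The rule also takes pseudogene rows and the antisense row Cyp4x1os, and it leaves out the P450 genes Cyp51, Tbxas1 and Ptgis, whose symbols have another form. Of the 103 genes, 24 passed the filter on low values in each table (a level of 1 TPM reached by at least 2 libraries), 21 of them in both and 27 in at least 1. The other 79 genes of each table were not tested. Of these 79, 13 were listed at 0 in every library of the first table and none exceeded 1.59 TPM there. In the second, 15 were at 0 and none exceeded 1.1 TPM.

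The study measured poly(A) RNA of TT2 ES cells in 50 libraries, 2 for each of 25 groups, as TPM, a transcript abundance per length scaled to a fixed total per library. The first table held 18 libraries: control, Setdb1-KO, Suv39h1/2-DKO (both Suv39h genes lost), Suv39h1/2;Setdb1-TKO, G9a-KO, G9a;Setdb1-DKO, G9a;Suv39h1/2-TKO, the loss of all 4 genes (QKO), and Dux-KO QKO, where Dux, a homeobox gene of the 2-cell embryo, was lost as well. The second table held 32 libraries of 8 genotypes, control to QKO, each without and with doxycycline. All 32 carried a doxycycline-inducible Dux transgene and, by their genotype field, no endogenous Dux, the control included. The dose label was 0.2 for control and Setdb1-KO and 1 for the other 6 genotypes, with no unit. All groups without Setdb1 had OHT in their titles and all others NT, which the labels do not explain, so that OHT and Setdb1 loss cannot be told apart. Titles gave each genotype 1 line code, shared only between the groups with and without Setdb1 of a pair, so that a difference between codes and a difference between genotypes cannot be told apart. The 2 libraries of a group were not said to be separate cultures, and every p-value measures the spread between these libraries.

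P450 enzymes are heme proteins that insert oxygen into lipids, steroids, retinoids, vitamins and foreign compounds, with electrons passed on by P450 oxidoreductase in the endoplasmic reticulum or by adrenodoxin in mitochondria. Many are at their highest in liver, kidney, adrenal gland or gonad and low in ES cells. Families 1 to 3 are best known for drug and toxin metabolism, family 4 for omega-hydroxylation of fatty acids, and the higher numbers for steps in steroid, bile acid, vitamin D and retinoic acid chemistry. Setdb1, Suv39h1, Suv39h2 and G9a (the gene Ehmt2) are methyltransferases of histone H3 lysine 9, a mark of silent chromatin.

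Sequence was examined first for the pair Cyp4a12b and Cyp4a12a, since reads of one can be credited to the other. Their coding sequences of 1527 bases differed at 23 bases (98.5% identity), and 74.1% of the 150-base windows of Cyp4a12b transcripts were found in no other transcript of GENCODE M21. Below is the 120-base window that holds the most differences, coding bases 646 to 765 in exon 6 of 12, with the 8 differing bases in capitals (GRCm38, plus strand, chr4:115432897-115433016 and chr4:115326644-115326763).
Cyp4a12b: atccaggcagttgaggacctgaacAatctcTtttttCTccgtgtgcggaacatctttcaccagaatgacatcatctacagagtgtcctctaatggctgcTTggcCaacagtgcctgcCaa
Cyp4a12a: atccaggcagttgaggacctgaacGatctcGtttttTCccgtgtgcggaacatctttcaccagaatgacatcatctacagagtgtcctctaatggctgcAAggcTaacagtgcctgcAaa
Cyp4a12a did not exceed 0.0478 TPM in any library of the first table or 0.433 TPM in the second, while Cyp4a12b reached 84.2 and 51.2 TPM. How the authors' counting shared reads between the copies was not given in the sources used here. Of the 26 tested genes with a transcript in that annotation, 24 had over 90% of such windows to themselves; the other two were Cyp4a12b and Cyp2c67.

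Promoters are shown for 2 neighbours on chromosome 7 that differed in level, Cyp2b23 and Cyp2b19 across the start of transcription (RefSeq, GRCm38.p6). Their 258 aligned columns were 78.3% identical, and capitals mark the 3 shared runs of 15 bases or more, the longest of 24 bases. Cyp2b23 is on the minus strand (chr7:26686381-26686680) and Cyp2b19 on the plus strand (chr7:26756892-26757191).
Cyp2b23: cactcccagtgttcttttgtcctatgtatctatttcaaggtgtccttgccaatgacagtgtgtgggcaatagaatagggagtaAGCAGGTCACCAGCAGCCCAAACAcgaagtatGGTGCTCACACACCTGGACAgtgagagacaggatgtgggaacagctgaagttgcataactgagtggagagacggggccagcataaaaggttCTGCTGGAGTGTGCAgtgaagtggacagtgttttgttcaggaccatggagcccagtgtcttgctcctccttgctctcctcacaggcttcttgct
Cyp2b19: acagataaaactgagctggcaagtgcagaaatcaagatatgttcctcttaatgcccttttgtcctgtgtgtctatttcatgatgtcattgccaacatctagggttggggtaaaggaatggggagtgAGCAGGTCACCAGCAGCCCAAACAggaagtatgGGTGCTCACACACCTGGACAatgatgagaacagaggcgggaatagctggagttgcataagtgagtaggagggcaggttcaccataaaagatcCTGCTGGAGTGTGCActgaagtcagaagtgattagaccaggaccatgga
Cyp2b23 lay at 2.21 to 360.5 TPM over the first table, and Cyp2b19 did not exceed 0.428 TPM there or 0.332 TPM in the second.

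The summed TPM of all 103 P450 genes was 77.1 and 79.2 in the 2 control libraries and 581 and 624 in Dux-KO QKO, within a range of 68.3 to 624 over the first table. The number of P450 genes at 1 TPM or more was 10 to 11 in control, 17 to 20 in QKO and 23 to 24 in Dux-KO QKO. All libraries had high ES cell markers: Pou5f1, Nanog, Sox2, Zfp42 and Esrrb summed to 3060 to 4380 TPM in the first table and 2510 to 3590 in the second. Hepatocyte markers (Alb, Afp, Ttr, Apoa1, Serpina1a, Hnf4a) summed to at most 6.29 and 5.37 TPM, with Serpina1a and Alb at 0 in both control libraries of either table. The sequenced depth is not known from TPM, and 11855 to 13274 genes reached 1 TPM per library in the first table and 11742 to 12690 in the second. Setdb1 and Ehmt2 were lower in every library labelled as lacking them than in every other library of their table (in the first, Setdb1 19.8 to 36.5 against 41.4 to 53.2 TPM and Ehmt2 7.38 to 30.2 against 82.5 to 104), Suv39h2 overlapped in both tables and Suv39h1 in the first, and Dux was at 0 TPM in Dux-KO QKO. Snhg genes, hosts of nuclear RNA, had a mean log2 level above 4 in 6 libraries of the second table, which stood apart: replicate 1 of control without doxycycline and replicate 2 of Setdb1-KO (both states), G9a;Setdb1-DKO (both states) and G9a-KO with doxycycline. All 18 libraries of the first table were above 4 as well. What sets these levels was not tested.

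**Figure D1:**
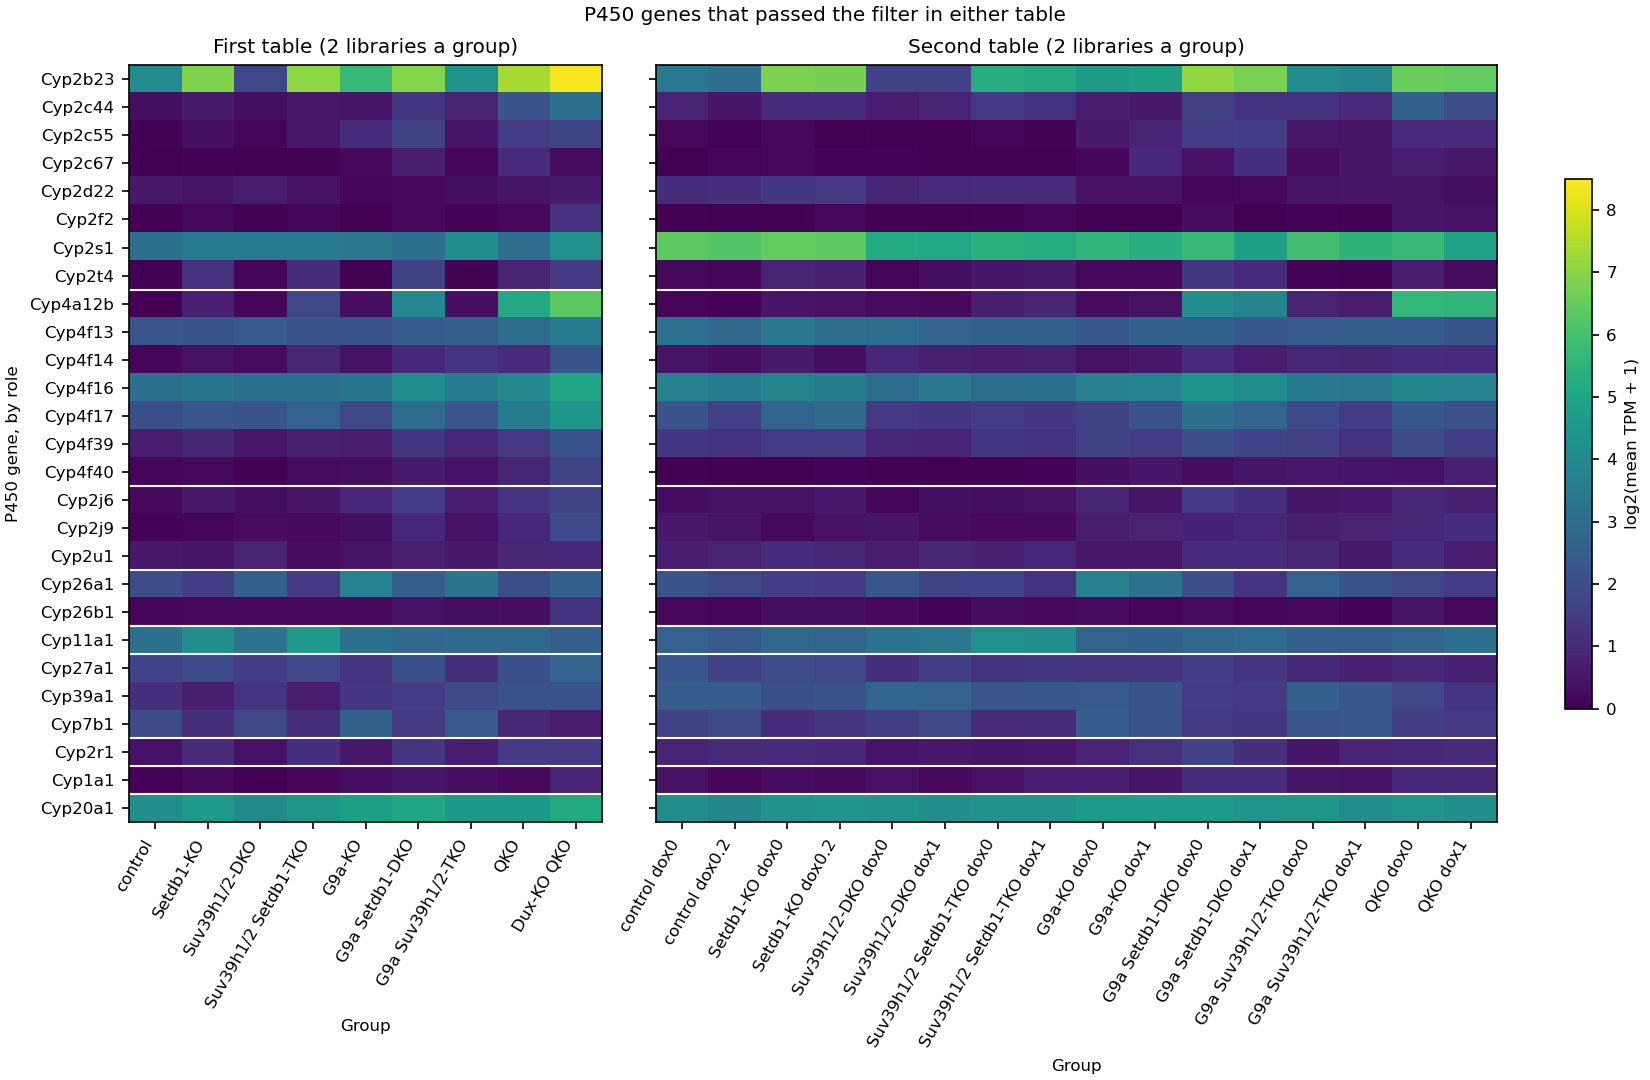
Level of P450 genes that passed the filter, as log2(TPM + 1) in colour, with groups along the columns and genes (rows) ordered by role. Cyp2b23 and Cyp4a12b change most across the groups of the first table. Most rows of that table are at their highest in Dux-KO QKO, where 23 and 24 genes reached 1 TPM in the 2 libraries.

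Comparisons stayed within a table and used limma on log2(TPM + 1), and a gene was called when its adjusted p was under 0.05 and its log2 difference 1 or more in size. A log2 difference on this scale understates the change of a gene at a low level. A called gene whose lower group was under 1 TPM can have passed the filter only through groups where it is high, so that counts of called P450 genes are descriptions. Comparisons with the same control share its 2 libraries, and their values are given side by side. In such bulk libraries, fewer cells of a type and less RNA per cell cannot be told apart.

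In the first table no P450 gene was called lower in any single, double or triple loss against control except Cyp2b23, which fell in Suv39h1/2-DKO. Setdb1-KO raised 3 of the 24 tested genes (Cyp2b23, Cyp2t4 and Cyp11a1), where 4.12% of all tested genes were called higher and 2.16% lower. Suv39h1/2-DKO had that 1 fall (all genes 0.137% higher, 0.404% lower), and Suv39h1/2;Setdb1-TKO had 4 P450 genes higher (all genes 4.74% higher, 2.25% lower). G9a-KO had 3 higher (all genes 5.52% higher, 3.74% lower), G9a;Setdb1-DKO 7 higher (all genes 9.58% higher, 4.8% lower) and G9a;Suv39h1/2-TKO 3 higher (all genes 4.65% higher, 2.07% lower). QKO had 7 higher and Cyp7b1 lower (all genes 10.1% higher, 5.42% lower). Dux-KO QKO against control had 17 higher and Cyp7b1 lower (all genes 16.8% higher, 4.31% lower). Under median ratio scaling it had 14 higher and 1 lower, where 19.8% of all genes were called, 70.2% of them higher. The median log2 difference of the tested P450 genes was 0.21 in Setdb1-KO (all genes -0.12), 0.72 in G9a;Setdb1-DKO (all genes -0.04), 0.76 in QKO (all genes -0.05) and 1.3 in Dux-KO QKO (all genes 0.15). The lower group was under 1 TPM in 1 of the 3 genes called in Setdb1-KO, 5 of 7 in G9a;Setdb1-DKO, 6 of 8 in QKO and 12 of 18 in Dux-KO QKO. Cyp20a1, Cyp39a1 and Cyp2u1 were called in none of the 18 comparisons of this table.

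Among the drug-metabolising family 2, Cyp2b23 (chr7:26665227-26686437, minus strand, GRCm38) reached the highest level of any P450 gene in either table. It belongs to a subfamily known for induction by phenobarbital in liver. Its control libraries were at 16.4 and 15.7 TPM, Setdb1-KO at 111 and 126, Suv39h1/2-DKO at 3.01 and 2.21, and Suv39h1/2;Setdb1-TKO at 144 and 117. G9a-KO lay at 50.8 and 49.9 TPM, G9a;Setdb1-DKO at 112 and 131, G9a;Suv39h1/2-TKO at 20.03 and 18.8, QKO at 185.5 and 149, and Dux-KO QKO at 360.5 and 325. The groups with Setdb1 loss thus lay above 110 TPM in every library, and those with Setdb1 at or under 50.8 TPM.

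The loss of Setdb1 alone raised mean Cyp2b23 7.36 times (log2 difference 2.80, SE 0.142, limma adjusted p = 2.11e-09), and the loss of G9a alone raised it 3.14 times (1.59, adjusted p = 7.52e-07). The loss of Suv39h1/2 went the other way, to 0.163 of control (log2 difference -2.25, adjusted p = 2.66e-07), also on top of G9a loss (G9a;Suv39h1/2-TKO against G9a-KO -1.33, SE 0.142, adjusted p = 3.60e-05). Setdb1 loss in cells without Suv39h1/2 raised Cyp2b23 by 5.19 on the log2 scale, 50.1 times in mean TPM. G9a;Setdb1-DKO and Setdb1-KO differed by 0.03 with a 95% interval of -0.27 to 0.34. The sum of 7 markers of 2-cell-like cells was likewise lower in Suv39h1/2-DKO and higher in Setdb1-KO and QKO (68.6 to 74.9 TPM in control, 5.25 to 7.77 in Suv39h1/2-DKO, 1310 to 1460 in Setdb1-KO and 5320 in both QKO libraries), but was 57.5 to 60.9 TPM in Dux-KO QKO, where Cyp2b23 was highest.

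Cyp2b23 in the second table, without doxycycline, was at 10.5 and 10.8 TPM in control and 79.7 and 145 in Setdb1-KO (log2 difference 3.22, SE 0.39, adjusted p = 2.68e-05). It was at 1.96 and 2.35 TPM in Suv39h1/2-DKO (-1.89, adjusted p = 0.00553), at 24.6 and 51.8 in Suv39h1/2;Setdb1-TKO (1.66, adjusted p = 0.00808) and at 25.9 and 24.3 in G9a-KO (1.16, adjusted p = 0.0369). G9a;Setdb1-DKO at 115 and 159 TPM and QKO at 86.2 and 99.1 were called higher as well (3.55 and 3.00), and G9a;Suv39h1/2-TKO at 13.2 and 19.1 was not called. The G9a-KO call was lost without any 1 of the 4 libraries compared (log2 differences 1.12 to 1.21, adjusted p 0.102 to 0.143). The Suv39h1/2;Setdb1-TKO call was lost without its replicate 2 (1.13, adjusted p = 0.141) or control replicate 1 (1.64, 0.0591), and the Suv39h1/2-DKO call without its replicate 1 (-1.80, 0.0637).

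**Figure D2:**
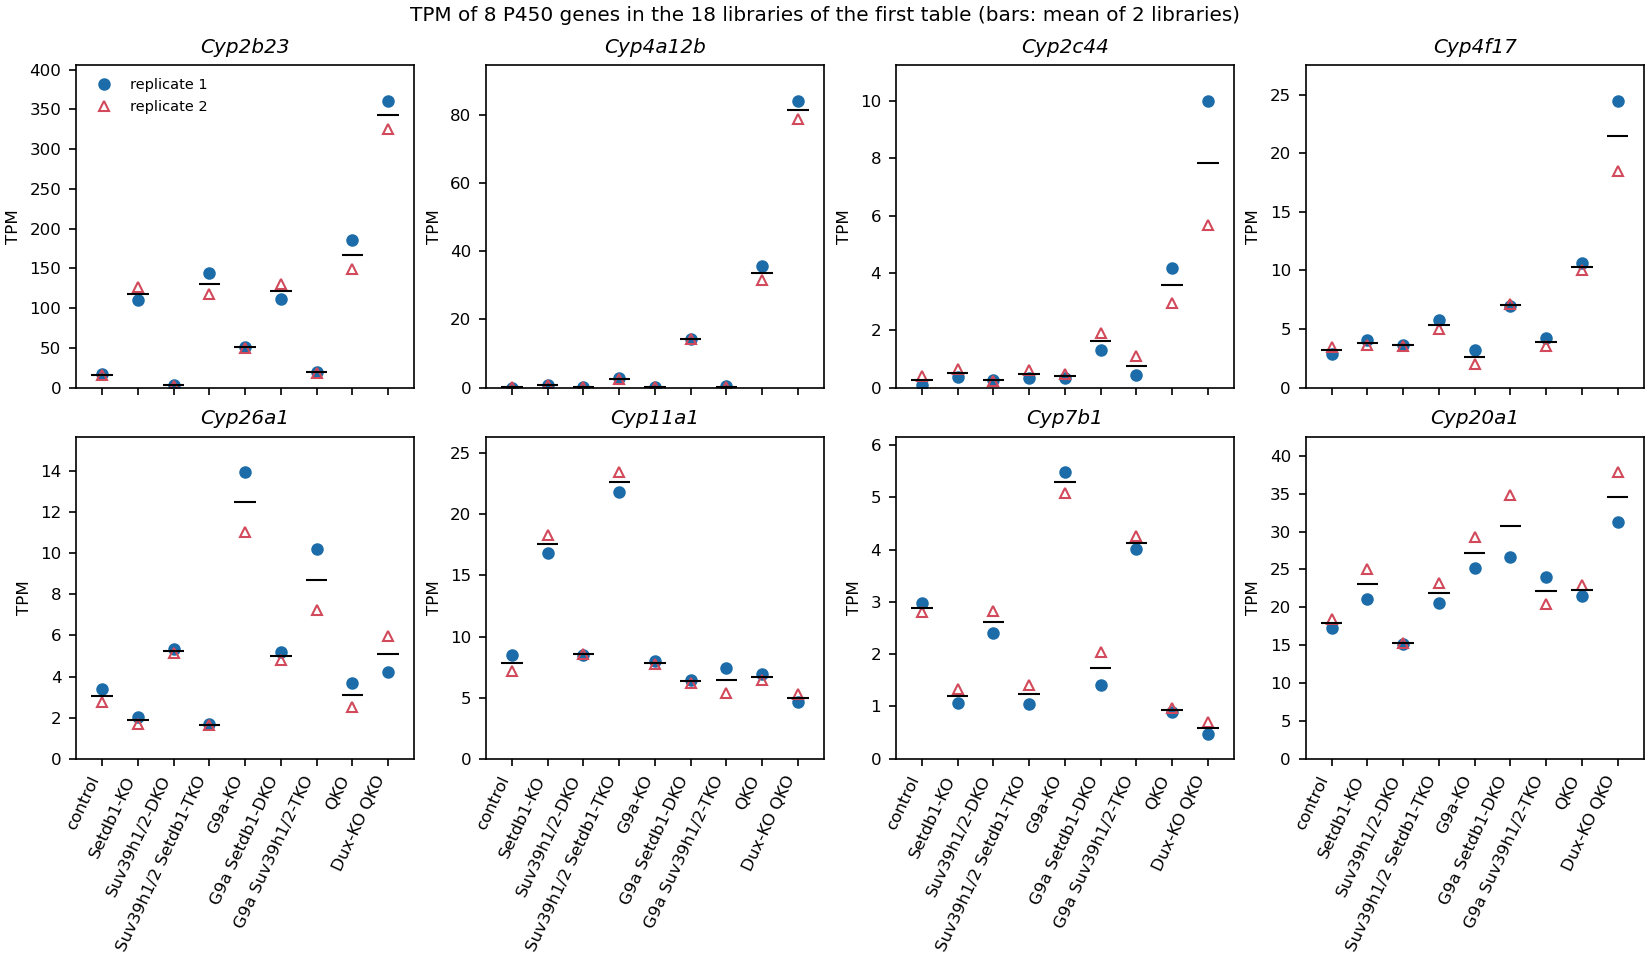
TPM of 8 P450 genes in the 18 libraries of the first table: each point is a library, the bar the mean of the 2 libraries of a group, and each panel has its own axis. Cyp4a12b stays under 1 TPM in 5 of the groups and reaches 84.2 and 79 TPM in Dux-KO QKO, while Cyp11a1 peaks in Suv39h1/2;Setdb1-TKO at 21.8 and 23.4 TPM and Cyp26a1 in G9a-KO at 13.9 and 11 TPM.

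The other family 2 genes moved from lower levels. Cyp2c44, the RefSeq gene Cyp2c23, an arachidonic acid epoxygenase of the rodent kidney, was at 0.0843 and 0.409 TPM in control, 1.3 and 1.92 in G9a;Setdb1-DKO, 4.19 and 2.95 in QKO and 9.997 and 5.68 in Dux-KO QKO. It was called in all 3 (log2 differences 1.07, 1.87 and 2.79), the 2 libraries of Dux-KO QKO lying far apart but above all others. The first call was lost without control replicate 1 (0.88) or G9a;Setdb1-DKO replicate 2 (0.90). Cyp2c55 went from 0.0415 and 0.0336 TPM in control to 1.1 and 1.27 in G9a-KO (log2 difference 1.07, SE 0.131, adjusted p = 1.67e-05), 1.70 and 2.60 in G9a;Setdb1-DKO and 1.73 and 1.88 in QKO. It was at 0.274 to 0.296 TPM in Setdb1-KO and not called there. Cyp2t4 was at 0 and 0.0464 TPM in control, 0.0529 and 0.141 in Suv39h1/2-DKO and at most 0.0571 in G9a-KO and G9a;Suv39h1/2-TKO, and at 1.02 and 1.65 in Setdb1-KO and 2.34 and 1.92 in G9a;Setdb1-DKO. All libraries with Setdb1 loss, 0.476 TPM and more, lay above all libraries without it. The call in Setdb1-KO (1.18) was lost without its replicate 2 (0.98), and that in Suv39h1/2;Setdb1-TKO (1.03) without its replicate 1 (0.88) or, just under the threshold, control replicate 1. Cyp2f2, known from airway club cells, was listed at 0 in both control libraries and at 1.64 and 1.05 TPM in Dux-KO QKO.

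Cyp2s1 was at 7.39 and 8.06 TPM in control and 20.6 and 14.7 in G9a;Suv39h1/2-TKO (log2 difference 1.08, SE 0.172, adjusted p = 0.000276), but at 8.22 and 6.35 in QKO. Setdb1 loss in the G9a;Suv39h1/2-deficient line lowered it by 1.16 on the log2 scale, and Dux-KO QKO was back at 18.5 and 18.05 TPM. Without G9a;Suv39h1/2-TKO replicate 1 both differences were under 1 in size (0.85 and -0.93), as was the second without QKO replicate 2 (-0.996). Its control libraries in the second table, which was normalised separately, were at 84.6 and 83.1 TPM, the highest P450 gene of that control. There Suv39h1/2-DKO at 29.1 and 43.02 TPM was called lower (-1.22, adjusted p = 0.0458), a call lost with no filter (adjusted p = 0.0688), under median ratio scaling (0.0709) and without either library of either group (0.0575 to 0.366).

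Of the epoxygenase-related genes of subfamilies 2j and 2u, which act on arachidonic acid, Cyp2j6 was at 0.195 and 0.122 TPM in control, 1.58 and 2.07 in G9a;Setdb1-DKO (log2 difference 1.28, SE 0.13), 1.26 and 1.56 in QKO (1.06; 0.97 without QKO replicate 2) and 2.10 and 2.67 in Dux-KO QKO. Cyp2j9 was called in Dux-KO QKO only among the comparisons with control, at 2.59 and 2.74 TPM against 0.0426 and 0.0689. Cyp2u1 stayed between 0.134 and 1.37 TPM. The vitamin D 25-hydroxylase Cyp2r1 was at 0.323 and 0.347 TPM in control and 1.44 and 1.94 in QKO (log2 difference 1.0, SE 0.301, adjusted p = 0.0117), a call lost without control replicate 1 (0.99, adjusted p = 0.052) or QKO replicate 2 (0.87, adjusted p = 0.0869).

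Cyp4a12b (chr4:115411624-115439034, plus strand, GRCm38), a fatty acid omega-hydroxylase of a pair known from mouse kidney, had the largest log2 difference of any P450 gene. It was at 0 and 0.0272 TPM in control, 0.631 and 0.747 in Setdb1-KO, 0.0937 and 0.133 in Suv39h1/2-DKO and 2.79 and 2.43 in Suv39h1/2;Setdb1-TKO. It was at 0.201 and 0.286 TPM in G9a-KO, 14.2 and 14.2 in G9a;Setdb1-DKO, 0.33 and 0.222 in G9a;Suv39h1/2-TKO, 35.8 and 31.7 in QKO and 84.2 and 79 in Dux-KO QKO. No 2 groups from Setdb1-KO upward overlapped, and both libraries of a group lay close together.

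The level of Cyp4a12b was 20.6 times higher in G9a;Setdb1-DKO than in Setdb1-KO and 58.2 times higher than in G9a-KO (log2 differences 3.17 and 3.61). The further loss of Suv39h1/2 raised it 2.38 times (QKO against G9a;Setdb1-DKO, log2 difference 1.19, SE 0.116, adjusted p = 7.70e-06) and the further loss of Dux 2.42 times (1.25, adjusted p = 1.96e-06). The response to Setdb1 loss was larger in cells without G9a than with it by 2.87 on the log2 scale (SE 0.164, limma adjusted p = 1.50e-07, where 4.18% of all genes were called). The response with G9a lay under 1 TPM, where the added 1 TPM flattens it, so this difference does not carry over to ratios of TPM. The second table gave 3.57 for the same difference (SE 0.304, adjusted p = 7.97e-07, 0.637% called), from 18.1 and 15.9 TPM in G9a;Setdb1-DKO and at most 0.508 TPM in control, Setdb1-KO and G9a-KO. QKO there was at 46.8 and 51.2 TPM, 2.88 times G9a;Setdb1-DKO. The line was free of endogenous Dux by its label, as was Dux-KO QKO.

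**Figure D3:**
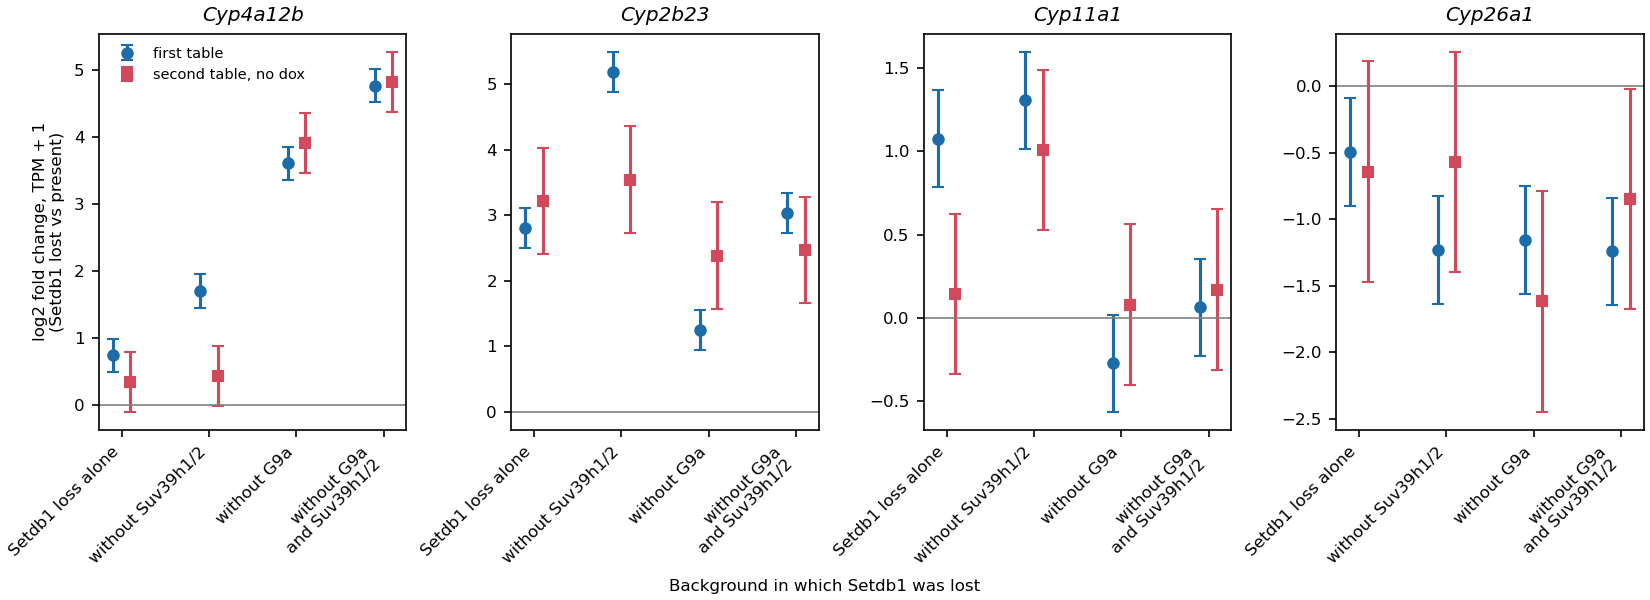
Log2 difference for loss of Setdb1 on 4 backgrounds (control, Suv39h1/2-DKO, G9a-KO, G9a;Suv39h1/2-TKO) for 4 P450 genes in both tables, the second without doxycycline. Points are the limma estimates from 2 libraries a group and bars their 95% intervals: Cyp4a12b lies above 3.6 on both backgrounds without G9a in both tables, Cyp2b23 is above 1 on every background, Cyp11a1 is highest on the Suv39h1/2-DKO background, and Cyp26a1 lies under 0 throughout.

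Of the 23 family 4 rows, 7 were tested in the first table: Cyp4a12b and 6 genes of subfamily 4f, which hydroxylate long fatty acids and leukotrienes. Cyp4f17 was at 2.90 and 3.48 TPM in control, 6.96 and 7.11 in G9a;Setdb1-DKO, 10.6 and 10.04 in QKO and 24.5 and 18.5 in Dux-KO QKO. It was called in QKO (log2 difference 1.44, SE 0.166) and in Dux-KO QKO (2.41). Cyp4f16 was at 7.54 and 7.61 TPM in control, 14.7 and 18.6 in G9a;Setdb1-DKO, 15.5 and 13.4 in QKO and 30.3 and 29.7 in Dux-KO QKO. Its G9a;Setdb1-DKO call (1.03) was lost without replicate 2 of that group (0.87). Cyp4f14, a leukotriene hydroxylase of liver, was at 0.162 and 0.0654 TPM in control, 1.35 and 1.56 in G9a;Suv39h1/2-TKO (log2 difference 1.14, SE 0.13, adjusted p = 1.20e-05) and 3.74 and 3.45 in Dux-KO QKO. Cyp4f13, Cyp4f39 and Cyp4f40 were called in Dux-KO QKO alone of the comparisons with control (1.2, 1.47 and 1.63). Cyp4f40 reached 1 TPM in 3 libraries, QKO replicate 1 (1.23) and both of Dux-KO QKO (2.72 and 2.02). It thus passed the filter only through Dux-KO QKO, and its call adds nothing to a comparison with other genes. In all 6 genes both Dux-KO QKO libraries were the highest of the 18. QKO of the second table lacked endogenous Dux by its label, as Dux-KO QKO did, and carried the Dux transgene. None of the tested 4f genes was called there, or in any other genotype, against control without doxycycline. Cyp4f17 was called in G9a;Setdb1-DKO against G9a-KO (1.35). That call was lost without the 6 libraries of high Snhg level (0.84), without G9a-KO replicate 1 (1.07) or without G9a;Setdb1-DKO replicate 2 (0.84).

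The 9 Cyp4f rows lie together on chr17:32452723-32965718 (GRCm38). Within 150 kb of them 11 other genes were tested, among them Akap8, Wiz and the zinc finger genes Zfp871, Zfp811 and Zfp799. None of these 11 was called in Dux-KO QKO (log2 differences -0.54 to 0.80) or in QKO. The 12 Cyp4a, Cyp4b and Cyp4x rows of chr4:115106323-115647723 held a single tested gene, Cyp4a12b, and no other row there exceeded 1.11 TPM in the first table or 0.432 TPM in the second. Around Cyp2b23, within 150 kb, Cyp2b19, Cyp2g1 and Cyp2a5 stayed under 0.428 TPM or at it in the first table, and no other gene there was tested. The 13 rows of that chromosome 7 group (chr7:25802475-27158668) held 4 tested genes (Cyp2s1, Cyp2b23, Cyp2f2 and Cyp2t4). All 4 were called higher in Dux-KO QKO against control, as were 16.8% of all genes. Cyp2f2 reached 1 TPM in the 2 Dux-KO QKO libraries alone and so passed the filter only through that group. Its call therefore adds nothing to a comparison with that share. Under median ratio scaling the Cyp2s1 call was lost (0.97), and Cyp2f2 fell under the filter and was not tested.

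**Figure D4:**
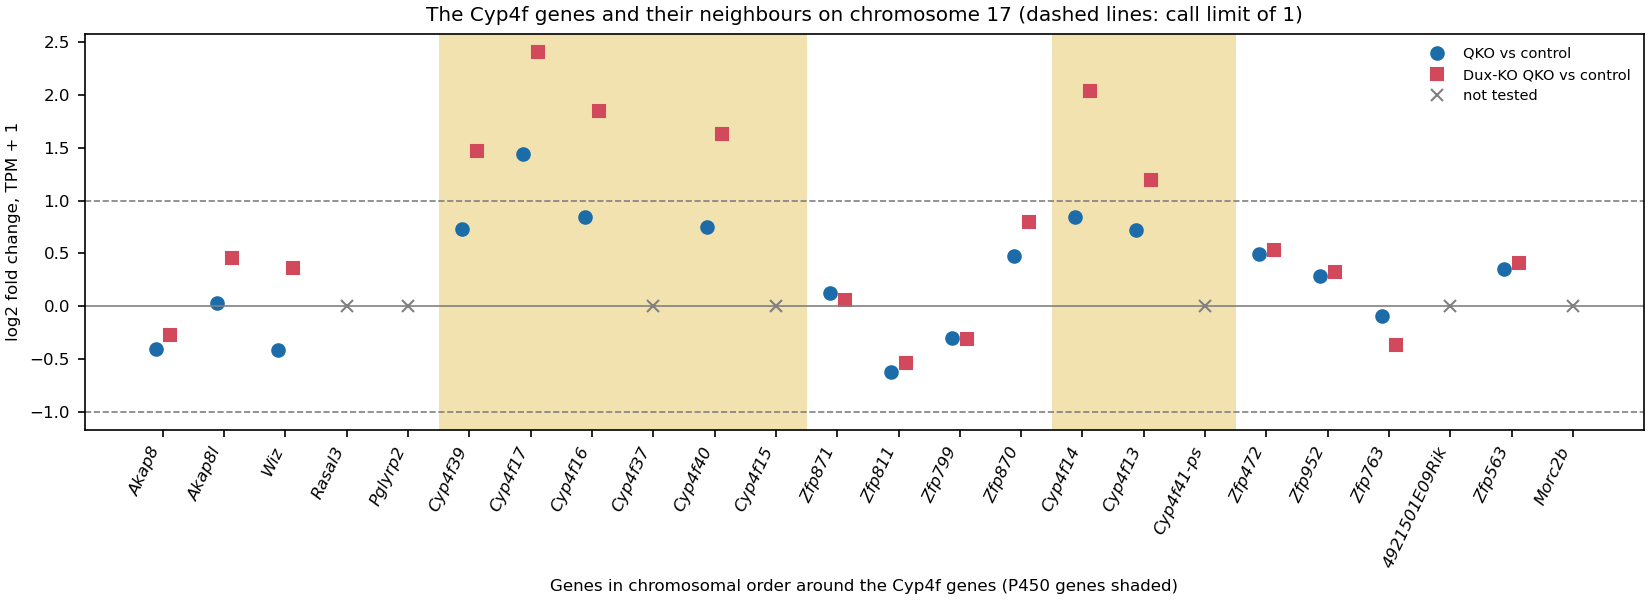
Log2 difference against control of the tested genes in and around the Cyp4f group in chromosomal order, for QKO and Dux-KO QKO, with P450 genes set apart by colour and dashed lines at the threshold of 1. The 6 Cyp4f genes lie above 1 in Dux-KO QKO, 1 of them (Cyp4f17) in QKO, and the 11 other genes lie between -0.54 and 0.80 in Dux-KO QKO. Cyp4f40 passed the filter only through Dux-KO QKO, so its place above 1 adds nothing to this contrast.

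Dux-KO QKO and QKO differed in 6 of the 24 tested P450 genes, all higher without Dux (of all genes, 4.71% were called higher and 1.83% lower): Cyp4a12b (1.25), Cyp2s1 (1.23), Cyp4f14 (1.2), Cyp2b23 (1.04), Cyp2f2 (1.02) and Cyp4f16 (1.01). The median of the P450 genes was 0.69 and that of all tested genes 0.22. Under median ratio scaling, which sets the median of all genes near 0, 2 were called, as were 5.1% of all genes. Of all called genes 50.4% were then higher in place of 72.1%. Cyp2f2 was then under the filter and was not tested. Without Dux-KO QKO replicate 1, 3 were called, with Cyp2b23 at 0.96 and Cyp4f16 at 0.99. Without QKO replicate 2 these genes gave 0.88 and 0.91, and without QKO replicate 1 Cyp2f2 gave 0.98. Summed trophoblast markers were also higher in Dux-KO QKO (145 to 147 TPM, QKO 57.7 to 67.3), as were primitive endoderm markers (225 to 230 TPM, QKO 91 to 101), and their part in these differences was not tested.

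Retinoic acid is cleared by the Cyp26 enzymes. Cyp26a1 (chr19:37697798-37701536, plus strand), the principal retinoic acid hydroxylase of the early embryo and a known target of retinoic acid receptors, was at 3.39 and 2.75 TPM in control, 13.9 and 11.04 in G9a-KO and 10.2 and 7.25 in G9a;Suv39h1/2-TKO. Both were called (log2 differences 1.72, SE 0.189, adjusted p = 5.68e-06, and 1.24, adjusted p = 0.000171). Setdb1-KO was at 2.06 and 1.71 TPM, Suv39h1/2-DKO at 5.33 and 5.15, Suv39h1/2;Setdb1-TKO at 1.68 and 1.64, G9a;Setdb1-DKO at 5.21 and 4.83, and QKO at 3.71 and 2.50. Setdb1 loss lowered it on all 3 mutant backgrounds (-1.23 without Suv39h1/2, -1.16 without G9a, -1.24 without both), and the 6 libraries with Setdb1 loss on these backgrounds were each under their partners. G9a-KO of the second table was at 8.21 and 15.5 TPM against 4.69 and 2.41 in control (log2 difference 1.49, SE 0.397, limma adjusted p = 0.0102). That call was lost without G9a-KO replicate 2 (1.06, limma adjusted p = 0.174) or control replicate 2 (1.12, limma adjusted p = 0.11). Setdb1 loss in the G9a-deficient line gave -1.62 there, a call lost without G9a-KO replicate 2 (-1.20) or G9a;Setdb1-DKO replicate 1 (-1.37). On the backgrounds without Suv39h1/2 and without both, Cyp26a1 was not called in the second table.

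Primitive endoderm markers moved with Cyp26a1 in some groups and not in others. All 7 (Gata4, Gata6, Sox17, Sox7, Pdgfra, Dab2, Foxa2) were called higher in G9a-KO, with sums of 52.8 to 56.6 TPM in control, 340 to 370 in G9a-KO, 364 to 389 in G9a;Suv39h1/2-TKO and 163 to 194 in G9a;Setdb1-DKO. The sums were also above control in Setdb1-KO (96.7 to 119 TPM) and Suv39h1/2;Setdb1-TKO (140 to 175), where both Cyp26a1 libraries lay under the control libraries. The sums in the second table were 131 to 145 TPM in control and 203 to 325 in G9a-KO. Their part in the Cyp26a1 difference was not tested. The promoter of Cyp26a1 (chr19:37697558-37697857, plus strand, RefSeq, GRCm38.p6) is shown because it carries the letters of a retinoic acid receptor element (AGTTCA, 5 bases of any kind, AGTTCA), read on the minus strand at bases 219 to 235, in capitals.
Cyp26a1: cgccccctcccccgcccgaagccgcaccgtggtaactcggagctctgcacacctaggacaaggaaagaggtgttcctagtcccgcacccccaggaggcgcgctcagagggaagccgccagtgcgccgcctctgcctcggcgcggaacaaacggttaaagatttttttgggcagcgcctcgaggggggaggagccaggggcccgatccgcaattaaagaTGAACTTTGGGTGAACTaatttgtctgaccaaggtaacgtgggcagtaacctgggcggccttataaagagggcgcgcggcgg
This motif was searched on both strands and stood in 8 of 32851 promoters (0.0244%). Promoters were matched for 20 of the 27 tested P450 genes, 25 entries in all, and Cyp26a1 was the single match. The letters TATAAA stood in 5 of the 25 (13.6% of all promoters), and the Dux motif (TGATT, any base, AATCA) in 0 of 25 (0.0335% of all). The median number of CpG pairs was 5 in the promoters of tested P450 genes, 2 in those of the untested and 7 over all promoters.

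Cyp26b1, a second retinoic acid hydroxylase, was at 0.0652 and 0.0905 TPM in control and 1.62 and 1.16 in Dux-KO QKO, where it was called (1.14). It reached 1 TPM in these Dux-KO QKO libraries alone and so passed the filter only through that group. Of 11 other tested genes of retinoid metabolism, Aldh1a1 and Dhrs3 were called higher and Crabp1 lower in G9a-KO. The retinoic acid receptor gene Rarb was called lower there, where 5.52% of all genes were called higher and 3.74% lower.

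Of the 6 steroid hormone genes only Cyp11a1 passed the filter. Cyp11a1 (chr9:58006411-58027023, plus strand) is the side-chain cleavage enzyme that makes pregnenolone from cholesterol. It was at 8.47 and 7.17 TPM in control, 16.8 and 18.3 in Setdb1-KO (log2 difference 1.08, SE 0.136, adjusted p = 3.48e-05; 0.97 without control replicate 2) and 21.8 and 23.4 in Suv39h1/2;Setdb1-TKO (1.42, adjusted p = 1.86e-06). Suv39h1/2-DKO lay at 8.51 and 8.56 TPM, G9a-KO at 7.97 and 7.78, G9a;Setdb1-DKO at 6.47 and 6.24, G9a;Suv39h1/2-TKO at 7.43 and 5.41, QKO at 6.94 and 6.44, and Dux-KO QKO at 4.66 and 5.30. The 4 libraries that lacked Setdb1 but kept G9a were above 16 TPM and the other 14 under 9. The response to Setdb1 loss was lower in cells without G9a by 1.35 on the log2 scale (interaction -1.35, SE 0.192, adjusted p = 0.000432).

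In the second table Suv39h1/2;Setdb1-TKO was again the highest, at 17.7 and 18.7 TPM against 4.79 and 5.91 in control (1.60, SE 0.231, adjusted p = 0.000124). Setdb1-KO there, at 6.31 and 5.68 TPM, overlapped with the control libraries and was not called, and the interaction with G9a loss was -0.06 (not called). Steroidogenic markers did not rise with Cyp11a1: Hsd3b1 and Hsd3b6 were at 0 in control, Setdb1-KO and Suv39h1/2;Setdb1-TKO of the first table, and Inha was called lower in Setdb1-KO.

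The cholesterol and bile acid genes went in differing directions. Cyp7b1, the oxysterol 7-alpha-hydroxylase, was at 2.98 and 2.80 TPM in control, 5.48 and 5.09 in G9a-KO, 4.0 and 4.26 in G9a;Suv39h1/2-TKO, 0.899 and 0.976 in QKO and 0.475 and 0.705 in Dux-KO QKO. It fell in QKO (-1.01, SE 0.142, adjusted p = 3.49e-05; -0.96 under median ratio scaling, -0.97 without control replicate 1 and -0.98 without QKO replicate 1) and in Dux-KO QKO (-1.29). Every library of the first table with Setdb1 loss, 2.04 TPM at most, was under every library with Setdb1, 2.41 TPM at least. In the second table Cyp7b1 was called in no comparison with control, QKO included (log2 differences within -0.62 to 0.79). It was called lower there in G9a;Setdb1-DKO against G9a-KO (-1.02), a call lost without G9a;Setdb1-DKO replicate 1 (-0.84). Cyp27a1, the mitochondrial sterol 27-hydroxylase, was at 2.60 and 1.96 TPM in control and 4.70 and 6.48 in Dux-KO QKO (1.0; 0.85 under median ratio scaling, 0.86 without control replicate 2, 0.81 without Dux-KO QKO replicate 2).

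Cyp27a1 in the second table was at 4.50 and 2.88 TPM in control without doxycycline and lower in Suv39h1/2-DKO (1.46 and 0.935), G9a;Suv39h1/2-TKO (0.751 and 1.16) and QKO (0.668 and 1.29), called at -1.08, -1.25 and -1.24. None of the 3 calls held without control replicate 1 or without all 6 libraries of high Snhg level, of which it is one (-0.828, -0.995 and -0.988 either way). Cyp39a1, an oxysterol 7-alpha-hydroxylase of liver, was called in no comparison and ranged from 0.513 to 3.9 TPM in the first table.

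The most abundant P450 gene with no call was the orphan Cyp20a1, whose substrate is unknown. It lay at 17.3 and 18.5 TPM in control, 15.2 to 37.8 TPM over the first table and 13.8 to 27 over the second. None of the 9 family 3 genes, the main drug oxidases of liver, exceeded 0.306 TPM. Of family 1, the dioxin-inducible family, Cyp1a1 was tested in the second table and called in no comparison.

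Counts were also made in the second table without doxycycline. Against control, 1 P450 gene was called higher in Setdb1-KO (all genes 1.67% higher, 0.847% lower), 3 lower in Suv39h1/2-DKO (0.239% higher, 1.32% lower), 2 higher in Suv39h1/2;Setdb1-TKO (1.15% higher, 2.35% lower) and 2 higher in G9a-KO (3.07% higher, 4.91% lower). In G9a;Setdb1-DKO 5 were higher (all genes 7.35% higher, 5.88% lower): Cyp4a12b (4.05, SE 0.215), Cyp2b23, Cyp2c55 (1.29), Cyp2j6 (1.13) and Cyp2t4 (1.05; 0.98 under median ratio scaling, 0.84 without control replicate 2). In G9a;Suv39h1/2-TKO 1 was lower (all genes 2.99% higher, 3.62% lower), and in QKO 3 were higher and 1 lower (all genes 6.59% higher, 7.42% lower). The higher genes of QKO were Cyp4a12b (5.52, adjusted p = 1.38e-13), Cyp2b23 and Cyp2c44 (1.78, SE 0.261, from 0.976 and 0.565 to 4.59 and 5.57 TPM). Cyp2d22, which is not tested in the first table, was lower in G9a;Setdb1-DKO than in Setdb1-KO (0 and 0.221 against 1.76 and 1.49 TPM, -1.25, SE 0.235).

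Mutant lines were also compared with each other. In the first table, Setdb1 loss called 3 higher and 1 lower in cells without Suv39h1/2 (6.41% of all genes called), 4 higher and 2 lower without G9a (5.43%) and 4 higher and 3 lower without both (9.1%). Cyp4a12b and Cyp2b23 were called higher and Cyp26a1 lower on all 3 of these backgrounds. The same comparisons called 2 higher (1.64%), 4 higher and 2 lower (4.96%) and 3 higher (3.31%) in the second table without doxycycline, with Cyp2b23 called higher in each. The first of these counts includes Cyp11a1 (1.01), whose call was lost without Suv39h1/2-DKO replicate 1 (0.72) or either Suv39h1/2;Setdb1-TKO library. In the second table Cyp4a12b was called higher without G9a and without both, but not without Suv39h1/2. Cyp26a1 was called lower there without G9a alone.

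G9a loss in cells without Setdb1 called Cyp4a12b, Cyp2c55 and Cyp26a1 higher and Cyp11a1 lower in the first table (8.64% of all genes called); the Cyp26a1 call was lost without Setdb1-KO replicate 2 (0.98). The second called Cyp4a12b, Cyp2c55 and Cyp2j6 higher and Cyp2d22 lower (7.9%), with Cyp2j6 just under the limit of 1 under median ratio scaling (0.98). Suv39h1/2 loss in cells without G9a and Setdb1 called Cyp4a12b alone (3.25%), and Cyp4a12b and Cyp2c44 in the second table (1.68%). Neither of the latter was called with a pseudocount of 0.1 (limma adjusted p = 0.1 and 0.284), and the Cyp2c44 call was lost without G9a;Setdb1-DKO replicate 1 (0.71) or either QKO library. Suv39h1/2 loss in cells without G9a called Cyp2b23 alone, lower (1.61%), and no P450 gene in the second table by limma (1.31%), where 5 of 24 had an unadjusted p under 0.05.

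The response to Setdb1 loss differed with the loss of G9a in 3 P450 genes (Cyp4a12b, Cyp2b23 and Cyp11a1), where 4.18% of all genes differed, and in 5 in cells without Suv39h1/2 (5.06%). With the loss of Suv39h1/2 it differed in Cyp2b23 alone (0.166%). In the second table the same tests called Cyp4a12b alone (0.637%), Cyp4a12b alone (0.42%) and no P450 gene (0%, with 1 of 24 at an unadjusted p under 0.05, limma).

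Induction of Dux by doxycycline called no P450 gene in any of the 8 lines (limma, adjusted p), where 0.188%, 0.174%, 0.456%, 0.253%, 0.97%, 1.06%, 0.499% and 0.42% of all genes were called in the order of lines given next. At an unadjusted p under 0.05 there were 1, 0, 0, 0, 2, 3, 0 and 3 of 24 in control, Setdb1-KO, Suv39h1/2-DKO, Suv39h1/2;Setdb1-TKO, G9a-KO, G9a;Setdb1-DKO, G9a;Suv39h1/2-TKO and QKO. The 192 log2 differences (24 genes in 8 lines) ran from -0.90 to 0.81, with 127 under 0, and 169 of their 95% intervals lay within 1 of 0. The median of all tested genes was under 0 as well in most lines, down to -0.22 in G9a;Setdb1-DKO. The 7 markers of 2-cell-like cells rose in the same libraries, from sums of 28.7 to 38 TPM to 354 to 419 TPM in control and from 269 to 309 TPM to 4450 to 4800 TPM in QKO. The 4 differences of this response between lines of the same dose label called 0 P450 genes and 0% of all genes (unadjusted p under 0.05: 0, 0, 1 and 0 of 24).

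With doxycycline Cyp4a12b was at 15.5 and 10.3 TPM in G9a;Setdb1-DKO and 41.5 and 51.1 in QKO, and at most 0.927 TPM in the other 6 genotypes. Cyp2b23 was at 6.22 and 9.58 TPM in control, 74.2 and 140 in Setdb1-KO, 109 and 113 in G9a;Setdb1-DKO and 75.4 and 97.04 in QKO. The Setdb1-KO libraries thus lay on either side of those of G9a;Setdb1-DKO and QKO, and all 6 lay above those of control. Cyp26a1 and Cyp2s1 had log2 differences under 0 in 8 of 8 lines (-0.74 to -0.09 and -0.90 to -0.07), with smallest adjusted p of 0.302 and 0.165.

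**Figure D5:**
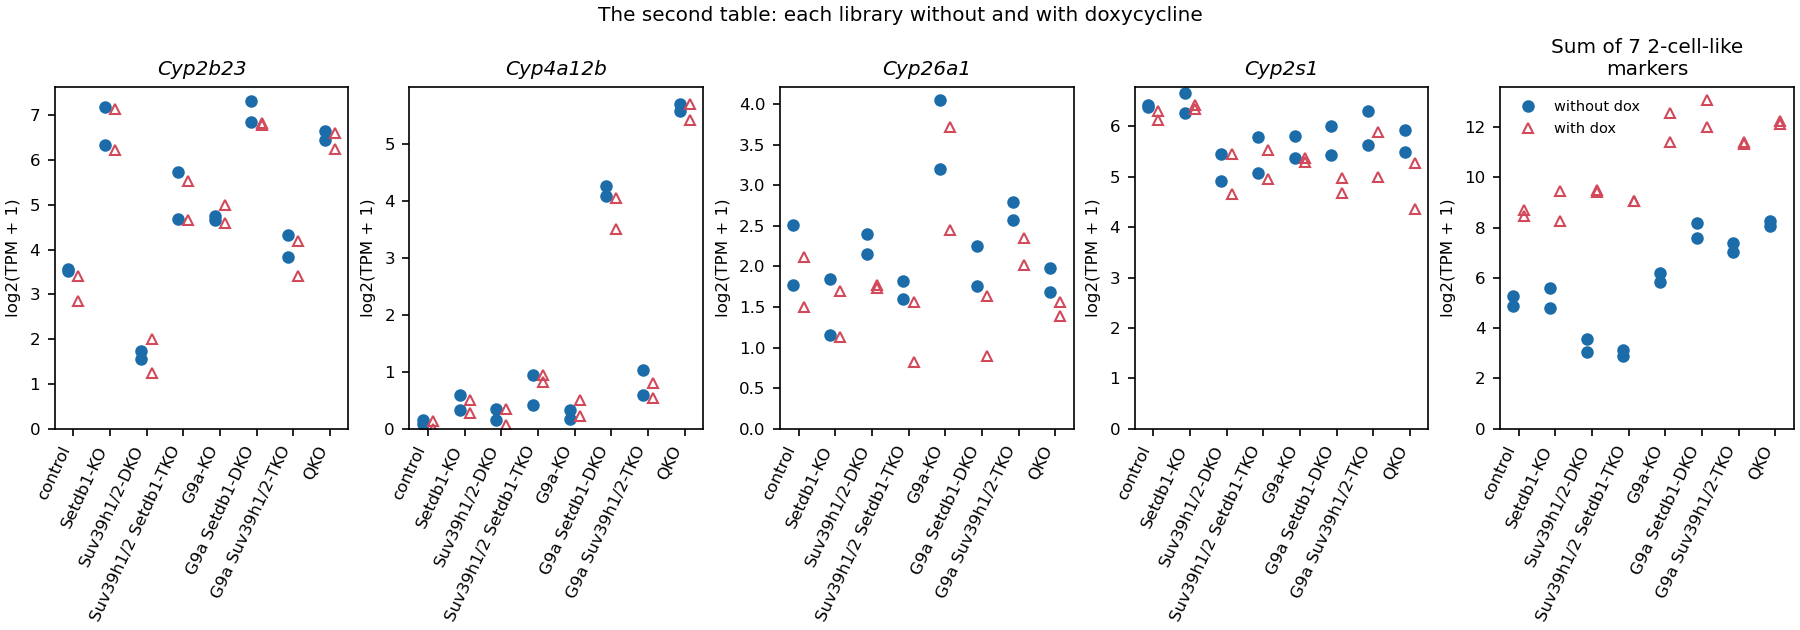
TPM on a log scale of 4 P450 genes and of the sum of 7 markers of 2-cell-like cells in the 8 lines with the Dux transgene, each point a library, without and with doxycycline. The marker sum is higher with doxycycline in every line, as from 28.7 to 38 up to 354 to 419 TPM in control, whereas no P450 gene was called.

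Genes that serve P450 enzymes were read from lists, given here for the first table. The shares of all genes called against control, given above for each group, apply to these lists. Of 11 tested redox partners, Cyb5b (outer mitochondrial cytochrome b5) was called lower in G9a;Setdb1-DKO, QKO (-1.54) and Dux-KO QKO (-2.36, from 202 and 214 to 37.2 and 42.2 TPM), and no other was called against control in these groups. Por, the reductase of microsomal P450 enzymes, was at 67.2 and 68 TPM in control and 43.2 and 31.9 in QKO and was not called (-0.85). Of 12 tested heme genes, Blvrb (biliverdin reductase B) was called lower in G9a-KO, G9a;Setdb1-DKO and G9a;Suv39h1/2-TKO, and none in QKO.

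For each list here, of all tested genes 10.1% were called higher and 5.42% lower in QKO, and 16.8% and 4.31% in Dux-KO QKO. Of 17 tested receptors and regulators, 1 was called higher and 3 lower in QKO, and 3 higher and 2 lower in Dux-KO QKO. The vitamin D receptor gene Vdr was higher in QKO (2.0), Dux-KO QKO (3.65) and G9a;Setdb1-DKO. Lower were Rarb, Srebf1 and Srebf2 (sterol response factors) in QKO, and Rarb and Arnt2 in Dux-KO QKO. Hnf4a, a liver and gut factor, was higher in G9a-KO, from 0.919 and 0.977 to 4.67 and 5.39 TPM, and in G9a;Setdb1-DKO, G9a;Suv39h1/2-TKO and Dux-KO QKO. Of 13 tested genes of fatty acid epoxide and eicosanoid metabolism, 5 were higher and 0 lower in QKO: Acot1 (2.71), Ephx1 (2.24), Alox5 (1.88), Fabp5 (1.64) and Ptgs2 (1.26). In Dux-KO QKO 7 of the 13 were higher, and the list's median was 0.73 in QKO and 1.27 in Dux-KO QKO (all genes -0.05 and 0.15). Of 14 tested steroid and bile acid enzymes, 2 were higher and 2 lower in QKO, and Akr1c21, a hydroxysteroid dehydrogenase, went from 0.673 and 1.22 TPM to 406 and 465 (7.82). Of the P450 genes outside the symbol rule, Cyp51, the sterol demethylase, was not called, and Ptgis, the prostacyclin synthase, was called lower in G9a-KO, G9a;Suv39h1/2-TKO and QKO.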

How the data were processed

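The authors deposited gene TPM values in 2 tables, 18 and 32 columns wide. Per the submitters' processing notes, the tools were SAMtools 1.9, RSEM 1.3.1, STAR 2.7.10b and Bowtie2 2.3.4.1 with mm10. Their annotation was not given in the sources used here. Columns without a sample numbered 0. Each table was normalised on its own, and no test spans both.

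With limma 3.58.1 (R 4.3.3; files read by data.table version 1.17.8), log2(TPM + 1) was fitted for all groups of a table together, without covariates and with a mean-variance trend (9 and 16 residual degrees of freedom). Benjamini-Hochberg adjustment ran over all 13862 and 13819 tested rows. The procedure was tested on simulated data. Coordinates and transcripts came from GENCODE M21 (101 of the 103 symbols), promoters from RefSeq. Sequences were compared with Biopython 1.88, and figures drawn with Python 3.11.15, pandas 2.3.3 and matplotlib 3.10.9.

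Genes named are Cyp4a12b, called P450 genes whose groups do not overlap, up to 25 a comparison by size, the uncalled ones of highest median, and called or abundant genes of the partner lists. The P450 genes and all lists were chosen with earlier results of these data known. Interactions of 2 losses, QKO against G9a;Setdb1-DKO, G9a;Suv39h1/2-TKO against G9a-KO and, in the second table, comparisons among mutant lines were added after seeing the data. Alternatives were a pseudocount of 0.1, no filter, median ratio scaling, leaving out each library in turn and a block for the replicate number. For the second table they also included leaving out 6 libraries of high Snhg level (mean log2 above 4), and that class as a term.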

Additional observations from a re-analysis of the deposited data

Results flagged for a closer look

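The size of the response to Setdb1 loss differed between lines with and without another methyltransferase in a test of the difference itself (limma, adjusted over all tested genes, 2 libraries a group). In the first table the response was larger without G9a than with it for Cyp4a12b (2.87 on the log2 scale, SE 0.164, limma adjusted p = 1.50e-07). With G9a that response ran from 0 and 0.0272 TPM in control to 0.631 and 0.747 in Setdb1-KO. The added 1 TPM flattens it there, so the difference holds for this scale and not for ratios of TPM. It was smaller for Cyp2b23 (-1.56, SE 0.201, adjusted p = 0.000194) and Cyp11a1 (-1.35, SE 0.192, adjusted p = 0.000432). In the second table without doxycycline the same differences were 3.57 for Cyp4a12b (SE 0.304, adjusted p = 7.97e-07), -0.83 for Cyp2b23 (95% interval -1.99 to 0.32, adjusted p = 0.845) and -0.06 for Cyp11a1.

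In cells that also lacked Suv39h1/2, the effect of G9a loss on the response was 3.07 for Cyp4a12b (adjusted p = 9.09e-08), -2.16 for Cyp2b23 (adjusted p = 8.64e-06), -1.24 for Cyp11a1 (adjusted p = 0.000659), -1.14 for Cyp2s1 (SE 0.244, adjusted p = 0.00636) and 1.17 for Cyp2c44 (SE 0.345, adjusted p = 0.0354). The Cyp2c44 value was not called with a pseudocount of 0.1, with no filter or without 1 of 6 of the 8 libraries compared (0.89 to 1.32), and the Cyp2s1 value not without G9a;Suv39h1/2-TKO replicate 1 (-0.91) or QKO replicate 2 (-0.98). In the second table Cyp4a12b gave 4.40 (adjusted p = 3.94e-08), and Cyp2b23 gave -1.08, not called.

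Loss of Suv39h1/2 enlarged the response of Cyp2b23 to Setdb1 loss by 2.39 in the first table (SE 0.201, adjusted p = 3.67e-05), where Suv39h1/2-DKO started from 3.01 and 2.21 TPM and control from 16.4 and 15.7. The second table gave 0.32 (95% interval -0.83 to 1.48), not called.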

How the results depend on the processing

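Of 92 called log2 differences in the main comparisons none changed sign under any alternative, and 0 lost their call with a pseudocount of 0.1, 2 with no filter, 9 of 90 under median ratio scaling, 5 of 17 without the 6 libraries of high Snhg level, 1 of 18 with that class as a term and 51 of 1900 with 1 library left out. Of 30 called in the added comparisons none changed sign either, and 4 lost their call with a pseudocount of 0.1, 1 with no filter, 1 under median ratio scaling, 1 of 18 without the 6 libraries, 2 of 19 with the class as a term and 22 of 804 with 1 library left out. A pseudocount of 0.1 called more P450 genes, since it lets low genes reach a difference of 1. In the first table these were 7 in Setdb1-KO, 7 in G9a-KO, 8 in Suv39h1/2;Setdb1-TKO, 14 in G9a;Setdb1-DKO, 8 in G9a;Suv39h1/2-TKO, 15 in QKO, 12 in Dux-KO QKO against QKO, 11, 11 and 12 for Setdb1 loss without Suv39h1/2, G9a or both, and 9 in G9a;Setdb1-DKO against Setdb1-KO. In the second they were 4 in Suv39h1/2;Setdb1-TKO, 6 in G9a-KO, 9 in G9a;Setdb1-DKO, 2 in G9a;Suv39h1/2-TKO and 8 in QKO. The shares of all genes called with a pseudocount of 0.1 are not given here. These counts therefore cannot set P450 genes apart from other genes. Median ratio scaling gave 2 for Dux-KO QKO against QKO and 1 for Suv39h1/2-DKO in the second table, where no filter gave 1 for G9a-KO and leaving out the 6 libraries gave 1 for Suv39h1/2-DKO, 1 for G9a-KO and 0 for G9a;Suv39h1/2-TKO. That scaling moved the higher share of all calls by over 10 points in Setdb1-KO (65.6% to 78%), Dux-KO QKO against QKO (72.1% to 50.4%), and in the second table in Suv39h1/2-DKO (15.3% to 38.7%), Suv39h1/2;Setdb1-TKO (32.9% to 51.4%), G9a-KO (38.5% to 53.9%), G9a;Suv39h1/2-TKO (45.2% to 56.4%), QKO (47.1% to 57.3%), doxycycline in G9a;Setdb1-DKO (71.9% to 92.4%), G9a;Setdb1-DKO against G9a-KO (75.4% to 63.7%) and QKO against G9a;Setdb1-DKO (35.8% to 49.1%). It did so too for the difference in Setdb1 response with Suv39h1/2 loss in the first table (91.3% to 69.2%) and with G9a loss in the second (86.4% to 73.4%). With 1 library left out, counts ran from 3 to 9 for Dux-KO QKO against QKO, 0 to 3 for G9a-KO, 1 to 3 for Suv39h1/2-DKO and Suv39h1/2;Setdb1-TKO and 0 to 1 for G9a;Suv39h1/2-TKO in the second table, and 0 to 1 for doxycycline in G9a;Setdb1-DKO. The count for doxycycline there was 1 without replicate 1 of the treated group. Correlations of same-numbered libraries ran from -0.0585 to 0.622 in the first table (25 of 36 above 0.1) and -0.647 to 0.748 in the second (66 of 120), so that not every pair deviated together and the replicate number was not taken to pair the libraries. With it as a replicate block, 18 P450 genes were called in Dux-KO QKO against control and 8 in QKO, and 0 of the 92 and 0 of the 30 calls changed. TPM keep no depth, so that no limit of detection can be given for the 79 genes under the filter in each table.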
